A study of Homo sapiens with 8 samples.

Results

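The 45 interferon-stimulated genes described here are genes whose transcription is classically switched on by interferons, taken by symbol from a fixed list of names. That list was chosen with earlier results of these data known. All 45 had a row among the 52576 genes of the deposited table, and 40 averaged at least 1 RPKM over the 8 libraries, a unit of reads scaled by gene model length and by the depth of the library. RNA was sequenced from NCI-H2009, an established human lung adenocarcinoma line, in which every library came from cells given dCas9-KRAB, a catalytically dead Cas9 protein fused to KRAB, a domain that represses transcription around the bound site. There were 4 groups of 2 libraries each: cells given e3 guide 1 (e3 #1), cells given e3 guide 2 (e3 #2), cells given a non-targeting guide with no match in the human genome (labelled Control and, in the design text, Dummy), and cells given no guide RNA (labelled Empty). Both e3 guides recognize the same enhancer, e3, which is studied for its effect on MYC, and the comparisons here ask what the interferon-stimulated genes did when it was targeted. No label states whether replicate libraries are separate cultures or clones, so p-values reflect only the spread among these libraries, and that spread could be technical. In such bulk RNA, fewer cells using a gene and less RNA of it per cell cannot be told apart.

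Interferons are secreted proteins that bind receptors at the cell surface and activate kinases of the JAK family, such as JAK1, which phosphorylate transcription factors of the STAT family. Type I and type III interferons drive a complex that includes STAT2 and IRF9 to a DNA element called the interferon-stimulated response element (ISRE), and interferon gamma drives STAT dimers to the gamma-activated site (GAS). The genes behind these elements encode sensors of viral RNA, transcription factors that extend the response, antiviral effectors and parts of the antigen presentation machinery, and many are also held at a basal level in the absence of infection. Epithelial cells of the lung, the lineage from which adenocarcinomas arise, are a site of such responses to inhaled viruses.

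The promoter sequences below, except that of SAMD9L, carry the core of the element that the group is known for. All were chosen from members whose RNA separated the groups. Each is the 250 bases before a RefSeq gene start (GRCh38.p14), written 5′ to 3′ on the strand of the gene, with capitals marking the ISRE core GAAANNGAAA on either strand (the other strand reads TTTCNNTTTC). The ISG15 window lies at chr1:1013247-1013496, plus strand, that of IFIT1 at chr10:89392373-89392622, plus strand, that of HERC5 at chr4:88456869-88457118, plus strand, that of IFI6 at chr1:27672193-27672442, minus strand, that of IFITM1 at chr11:313790-314039, plus strand, that of MX1 (the third of 3 starts) at chr21:41431800-41432049, plus strand, and that of SAMD9L at chr7:93148386-93148635, minus strand.
ISG15: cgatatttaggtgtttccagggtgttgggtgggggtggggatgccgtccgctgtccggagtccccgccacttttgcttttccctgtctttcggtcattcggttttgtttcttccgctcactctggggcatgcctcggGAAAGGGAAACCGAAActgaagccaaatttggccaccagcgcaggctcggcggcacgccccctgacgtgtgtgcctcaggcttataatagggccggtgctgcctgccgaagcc
IFIT1: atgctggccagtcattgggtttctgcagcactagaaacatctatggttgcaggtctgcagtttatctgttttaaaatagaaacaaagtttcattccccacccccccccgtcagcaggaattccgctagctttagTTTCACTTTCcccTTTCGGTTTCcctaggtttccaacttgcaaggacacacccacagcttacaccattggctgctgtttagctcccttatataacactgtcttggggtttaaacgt
HERC5: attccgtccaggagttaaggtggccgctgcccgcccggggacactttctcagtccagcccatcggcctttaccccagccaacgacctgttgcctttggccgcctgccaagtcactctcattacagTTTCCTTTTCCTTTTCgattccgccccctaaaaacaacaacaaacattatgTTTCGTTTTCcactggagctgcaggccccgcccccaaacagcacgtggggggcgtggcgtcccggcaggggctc
IFI6: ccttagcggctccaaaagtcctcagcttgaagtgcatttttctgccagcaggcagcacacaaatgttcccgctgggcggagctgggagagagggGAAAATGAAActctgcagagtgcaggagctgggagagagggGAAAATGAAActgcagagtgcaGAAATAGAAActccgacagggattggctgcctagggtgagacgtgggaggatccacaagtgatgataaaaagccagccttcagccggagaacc
IFITM1: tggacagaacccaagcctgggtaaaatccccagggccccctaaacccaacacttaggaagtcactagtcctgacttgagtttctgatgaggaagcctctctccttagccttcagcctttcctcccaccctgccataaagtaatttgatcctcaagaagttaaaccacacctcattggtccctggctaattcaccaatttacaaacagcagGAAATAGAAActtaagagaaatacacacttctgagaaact
MX1: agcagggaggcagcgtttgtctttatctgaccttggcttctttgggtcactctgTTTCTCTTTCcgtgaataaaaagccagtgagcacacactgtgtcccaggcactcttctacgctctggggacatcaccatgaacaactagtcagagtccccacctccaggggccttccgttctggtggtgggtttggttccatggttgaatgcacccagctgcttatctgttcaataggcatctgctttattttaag
SAMD9L: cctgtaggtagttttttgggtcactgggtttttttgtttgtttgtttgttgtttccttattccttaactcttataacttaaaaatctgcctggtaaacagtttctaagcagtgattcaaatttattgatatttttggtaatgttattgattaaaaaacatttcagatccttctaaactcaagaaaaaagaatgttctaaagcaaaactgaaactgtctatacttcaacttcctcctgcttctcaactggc

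The windows of ISG15 and IFIT1 each held 2 cores, overlapping in ISG15 and apart in IFIT1. HERC5 and IFI6 held 3 each, and IFITM1 and the printed MX1 window held 1. The windows of MX1 starts 1 and 2, which are not printed, held 0 exact cores. That of start 2 does hold tttcgtttc and tttcatttc, with a shorter gap between the TTTC stretches. The SAMD9L window, shown because its RNA followed another order of the groups, held no exact core. It does hold the stretch aaaactgaaa, which differs from the core only in its first letter. RefSeq windows were found for 38 of the 45 members, DDX58 under its newer symbol RIGI. At least 1 window held an ISRE core in 24 of those 38 (63.2%), against 1014 of all 27305 genes with a window (3.71%). The GAS core TTCNNNGAA stood in 14 of the 38 (36.8%), against 2208 of all 27305 (8.09%). The patterns can share bases, as the ISRE and GAS cores of the MX1 window do, and a match describes the letters of the sequence alone. IFIT2, MX2, OAS2, OASL, IRF7, USP18 and TRIM22 had no window in the table.

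**Figure D1:**
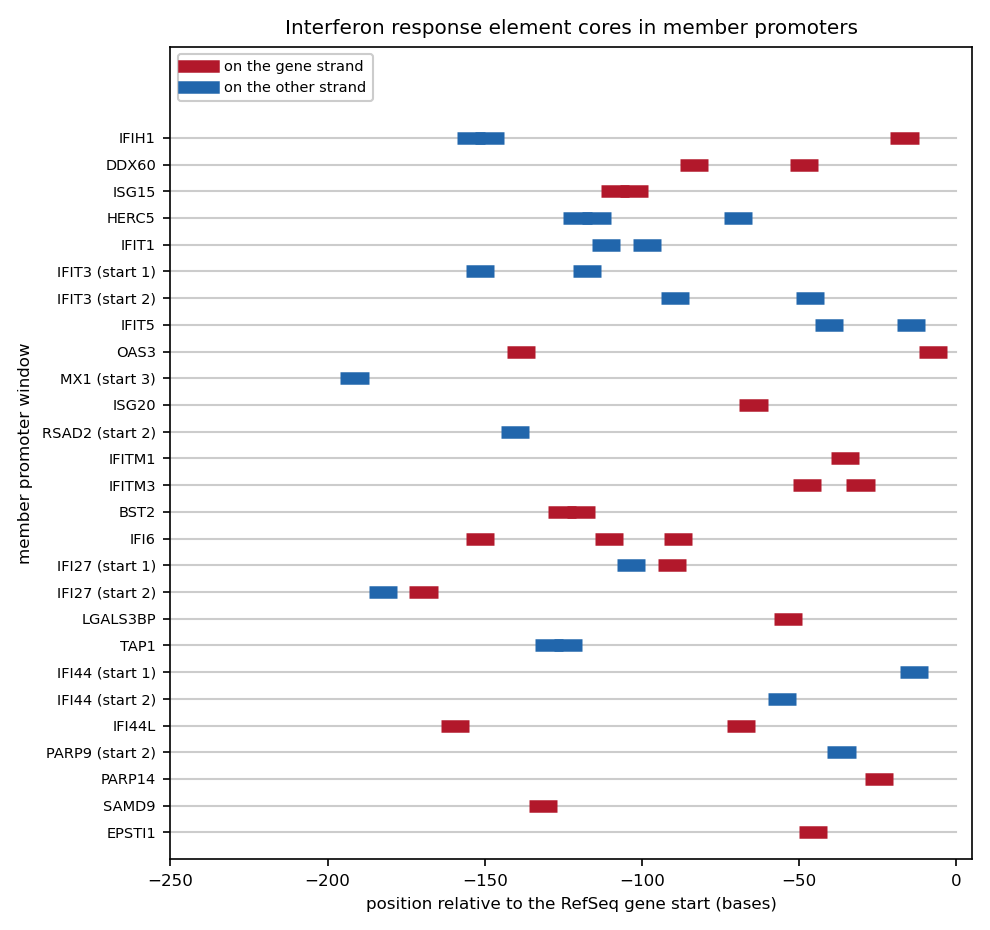
Positions of ISRE cores (GAAANNGAAA) in the promoter windows of members that held at least 1, in bases relative to the RefSeq gene start (x axis), 1 line per window. Red bars lie on the strand of the gene and blue bars on the other strand, and several windows, such as those of ISG15, HERC5 and IFI6, hold more than 1.

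The libraries held 3875080 to 5754470 reads, as inferred from the smallest steps in the RPKM values. In the shallowest, a level of 1 RPKM corresponds to 12.0 reads for a gene model of median length (3.09 kb), so members near that level carry wide counting errors. MYC (ENSG00000136997.9), the gene for which the enhancer is studied, stood at 42.4 and 43.4 RPKM under guide 1 and 36.3 and 36.2 RPKM under guide 2, against 88.9 and 90.1 RPKM under the non-targeting guide and 74.6 and 72.7 RPKM without a guide. It was lower in all 4 e3 libraries than in all 4 control libraries (log2 change against the non-targeting guide -1.04 ± 0.05 with guide 1, limma adjusted p = 0.000218, and -1.28 ± 0.05 with guide 2, 6.00e-05). The 6 epithelial markers (EPCAM, CDH1 and 4 keratins) were all above 1 RPKM, with summed levels of 3120.2 to 3134 RPKM with guide 1, 3037 to 3077 RPKM with guide 2, 2654 to 2805 RPKM with the non-targeting guide and 3336 to 3454 RPKM without a guide. Of the lung adenocarcinoma markers, NKX2-1 stood at 23.2 to 43.2 RPKM and was highest without a guide, while NAPSA reached at most 1.30 RPKM and SFTPB 0.117 RPKM. Of 6 immune markers only CD68, which many cell types express, was above 1 RPKM, so their summed level of 28.6 to 32.1 RPKM with the e3 guides, 21.9 to 24.1 RPKM with the non-targeting guide and 12.4 to 14.4 RPKM without a guide followed that gene. Of 4 fibroblast markers only COL1A1 was above 1 RPKM, and their sums of 6.63 to 7.18 RPKM with guide 1, 6.15 to 7.06 RPKM with guide 2, 5.06 to 5.76 RPKM with the non-targeting guide and 3.26 to 4.55 RPKM without a guide were likewise highest with the e3 guides. DCN and LUM, which define fibroblasts, were listed at 0 in every library, and the endothelial markers summed to at most 0.503 RPKM. The part of such differences in the results was not tested. PTPRC, which marks leukocytes, was at most 0.0469 RPKM and CD3E, which marks T cells, was listed at 0 in every library. The no-guide libraries stood apart from the other 6 across the transcriptome, with 12.4% of all 13979 genes called between the 2 controls.

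By their median the interferon-stimulated genes were highest with guide 1 and lowest without a guide, with guide 2 and the non-targeting guide between them. Guide 1 had the highest group mean for 23 of the 40 members tested, the non-targeting guide for 11, guide 2 for 6 and the cells without a guide for 0. Among the 23 are OAS2 and MX2, which averaged 1.98 and 1.54 RPKM with guide 1. Both passed the filter of 1 RPKM only through their guide 1 libraries, so the filter itself adds to that count. The lowest group mean fell to the cells without a guide for 26 members, to guide 2 for 10, to the non-targeting guide for 4 and to guide 1 for 0. These ranks were not counted over all genes, among which the no-guide libraries also stood apart. How far they are particular to the members is therefore not known. The median of the members' log2(RPKM + 1) deviations from their own 8-library means was 0.25 in both guide 1 libraries, -0.02 and -0.0042 in the guide 2 libraries, 0.08 and 0.13 in the non-targeting libraries, and -0.25 and -0.27 in the no-guide libraries. The medians over all genes lay within 0.03 of 0 in every library. In each group the 2 libraries thus lay closer to each other than to the next group, with the narrowest gap between guide 2 and the non-targeting guide.

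**Figure D2:**
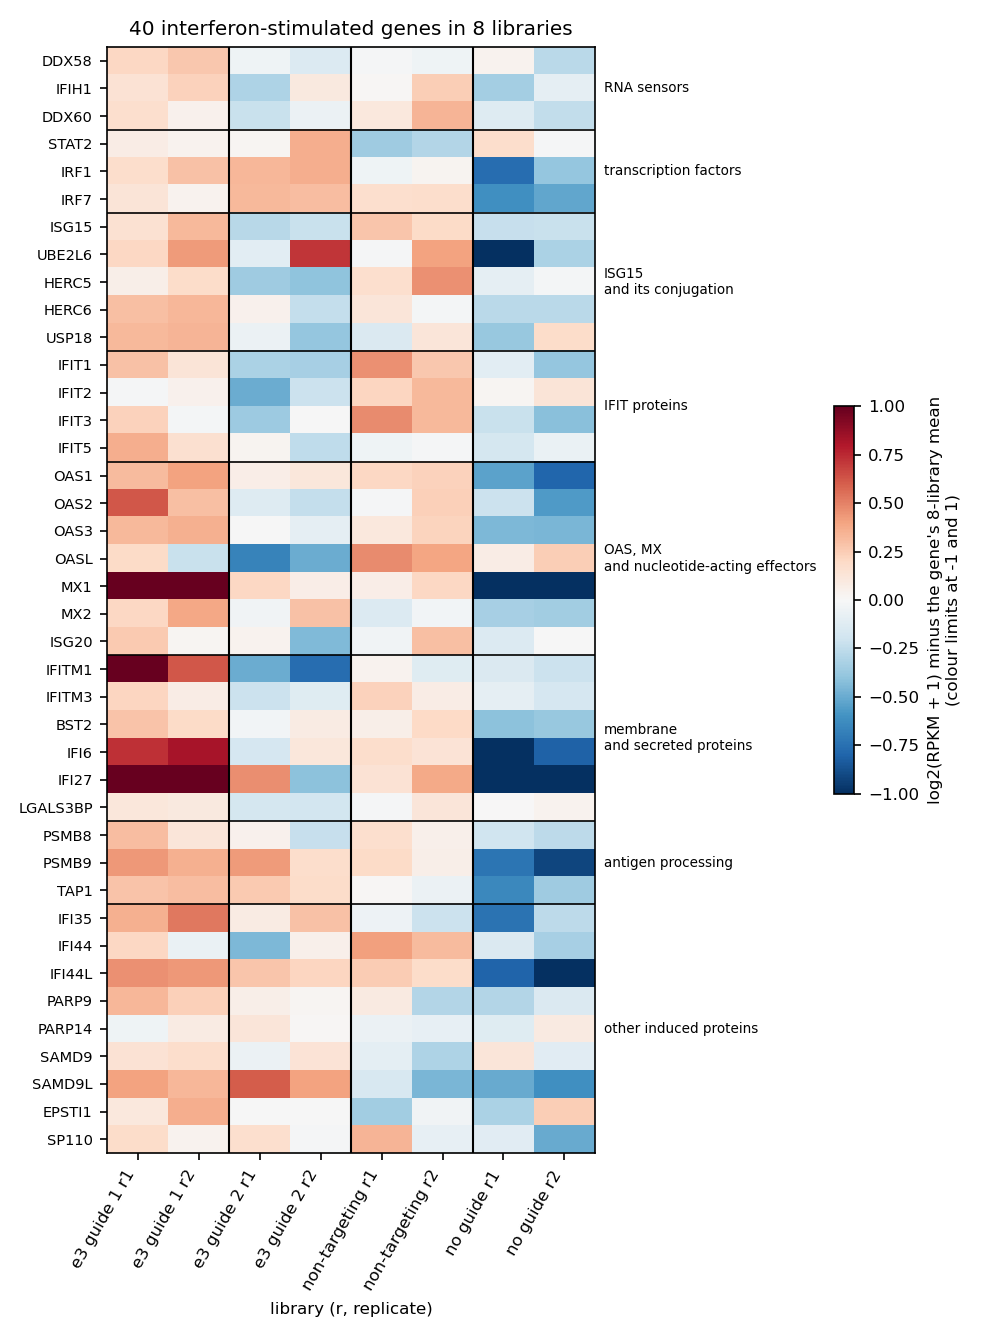
Log2(RPKM + 1) of each of the 40 members tested (rows, grouped by role) in each of the 8 libraries (columns), minus the gene's mean over the libraries. Red is above and blue below that mean, with colours cut at -1 and 1, and both guide 1 columns are mostly red (median deviation 0.25) while both no-guide columns are mostly blue (-0.25 and -0.27).

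Against the non-targeting guide the 2 e3 guides gave different sets of calls. With guide 1, 3 of the 40 members were called higher (MX1, IFI6 and IFITM1) and 0 lower, a gene being called at an adjusted p under 0.05 in limma's moderated test over all 13979 genes. Changes are differences on the log2(RPKM + 1) scale throughout. Of all genes tested, 2.32% were called higher and 2.45% lower in that comparison (4.77% either way), and the median change was 0.20 over members and 0 to 2 decimals over all genes. At an unadjusted p under 0.05 there were 11 members higher and 1 lower, where 19.9% of all genes passed either way. With guide 2, 1 member was called higher (SAMD9L) and 8 lower: OASL, HERC5, IFIT1, IFIT2, IFIT3, ISG15, IFITM3 and LGALS3BP. The background there was 4.03% of genes called higher and 5.32% lower (9.34% either way), with a median change of -0.14 over members and 0.01 over all genes. At an unadjusted p under 0.05 there were 4 members higher and 11 lower, where 23.4% of all genes passed either way. The 2 comparisons share the non-targeting libraries, and the difference between the guides was tested on its own.

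These counts against the non-targeting guide rest on few libraries. For guide 1 the count of 3 became 0 without guide 1 replicate 1, 1 without guide 1 replicate 2, and 0 without either non-targeting library, and it became 5 (adding TAP1 and IFI35) without either no-guide library, which alters only the estimate of the spread. For guide 2 the count of 9 became 2 without guide 2 replicate 1, 5 without guide 2 replicate 2, 4 without non-targeting replicate 1 and 2 without non-targeting replicate 2. ISG15 was the only member called under every alternative run for guide 2, and none was for guide 1.

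Against the cells without a guide, far more members were called, and nearly all of them higher. Guide 1 had 18 members higher and 0 lower, where 7.37% of all genes were called higher and 6.85% lower (14.2% either way). The median change was 0.46 over members and -0.03 over all genes. Guide 2 had 13 members higher and 2 lower (OASL and LGALS3BP), against 8.57% and 9.11% of all genes (17.7% either way), with medians of 0.14 and -0.03. The non-targeting guide itself had 15 members higher and 0 lower than the cells without a guide, where 6.55% of all genes were called higher and 5.81% lower (12.4% either way), with medians of 0.37 and -0.01. The last count became 9 without either non-targeting library. Calls under every alternative run numbered 12 of 18 for guide 1, 9 of 15 for guide 2 and 9 of 15 for the non-targeting guide, and BST2, IFI44L, IFI6, MX1 and PSMB9 were among them in all 3 comparisons, which share the no-guide libraries.

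**Figure D3:**
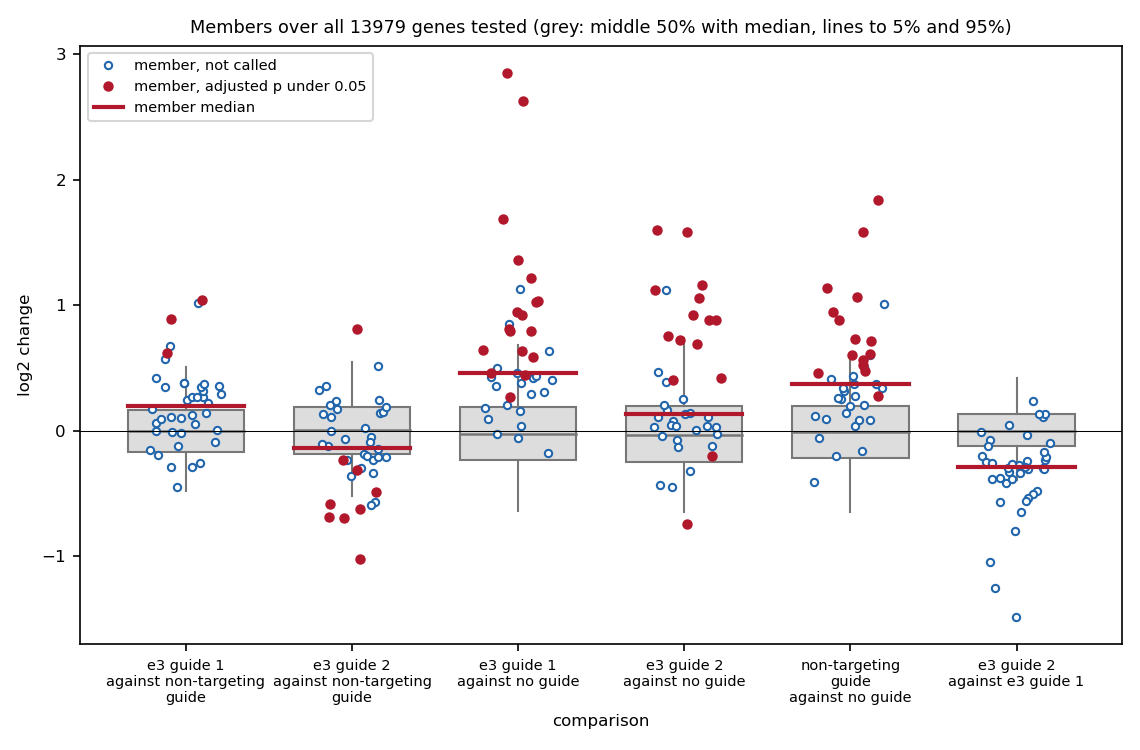
Log2 changes of the 40 members (points, red where called) in 6 comparisons, over boxes that hold the middle 50% of all 13979 genes tested, with lines to the 5% and 95% points and the median in grey. The red bar, the member median, lies at 0.46, 0.14 and 0.37 in the 3 comparisons with cells without a guide and at -0.29 for guide 2 against guide 1.

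Pooling the 4 e3 libraries against the 4 controls left 2 members called, SAMD9L and IFI35, both higher, where 2.63% of all genes were called higher and 2.58% lower (5.20% either way). The median change was 0.22 over members and -0.02 over all genes. That fit takes 2 guides and 2 unlike controls as 4 and 4 replicates, and its 727 genes called in all became 256 with an estimated correlation within groups and 1 with group means as samples. Without guide 1 replicate 1 the members called were SAMD9L, higher, and OASL, lower by 0.76 (limma adjusted p = 0.0298). The count became 1 without guide 1 replicate 2, without either guide 2 library or without either no-guide library. SAMD9L was called in each of those, and it lost the call when the 2 libraries of a group were averaged to 1 sample (adjusted p = 0.407). IFI35 lost the call in 12 of 17 alternatives, with adjusted p-values of up to 0.411, among them the fit without the no-guide libraries (0.0754). That last fit, chosen after seeing the data, called SAMD9L and TAP1.

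**Figure D4:**
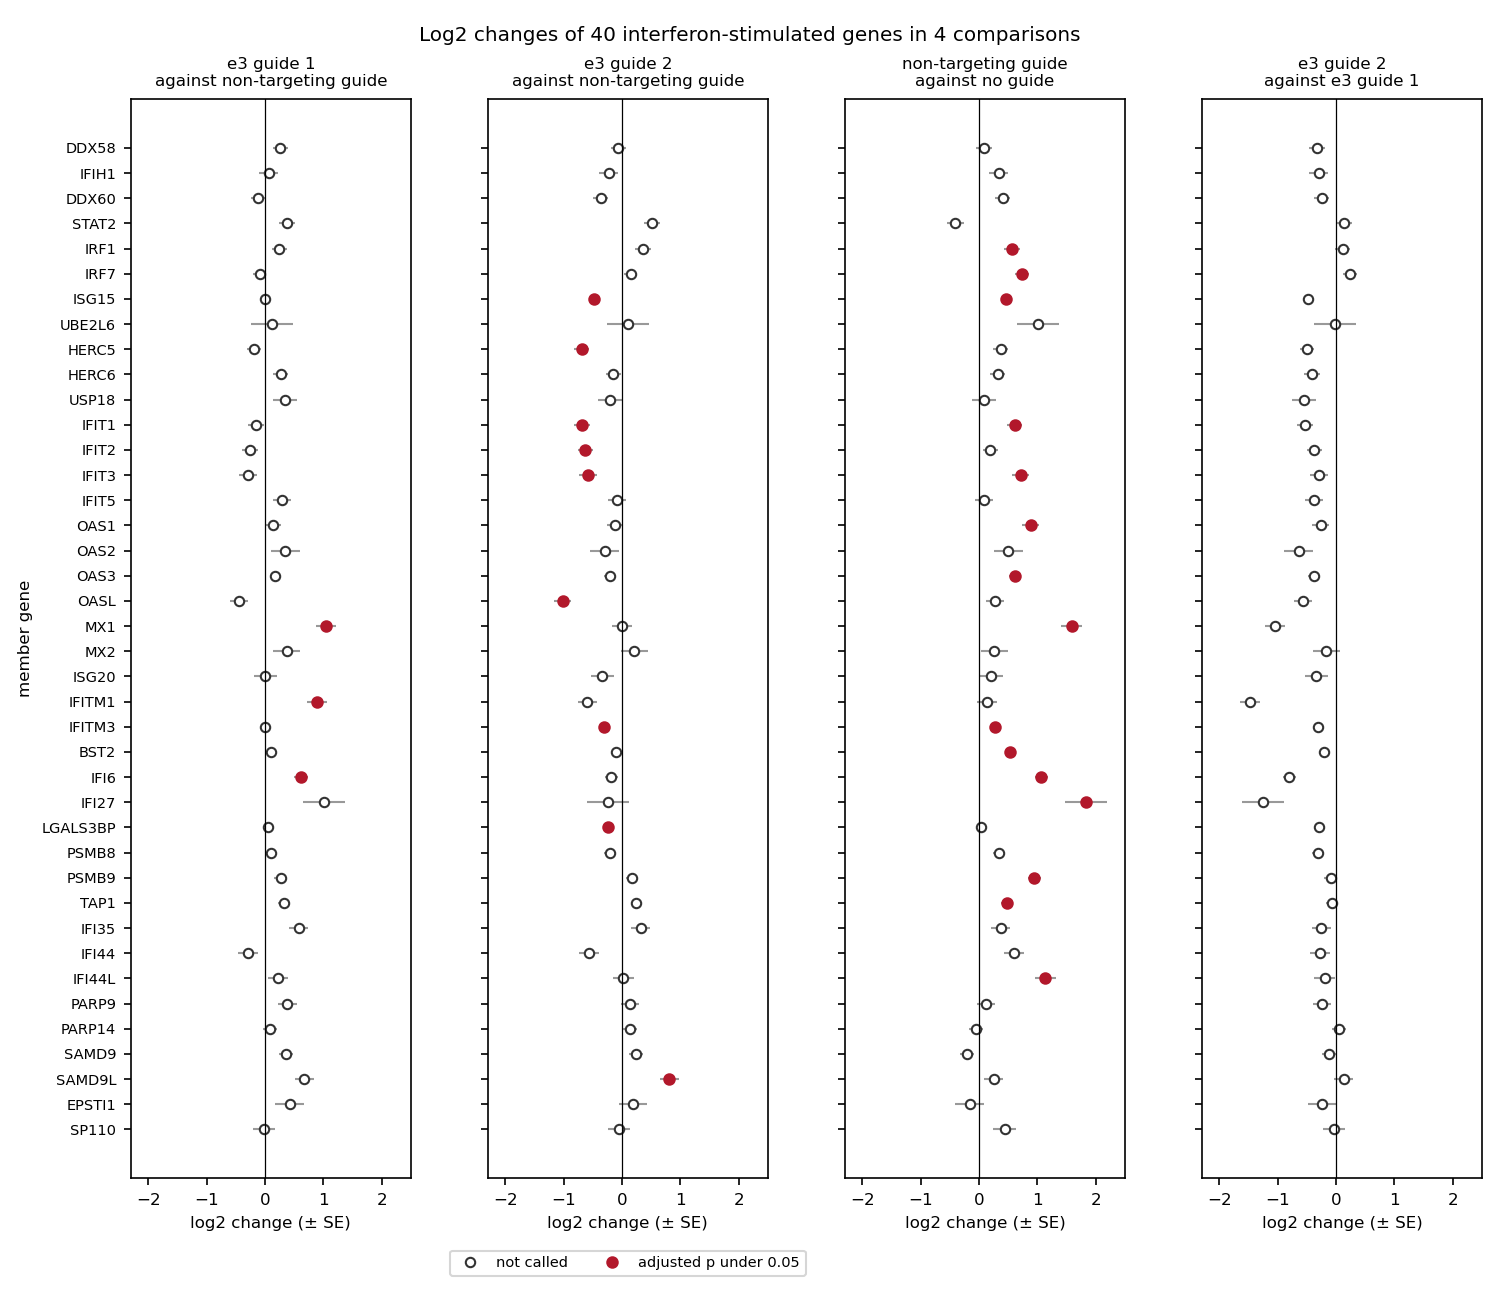
Log2 change with its standard error of each of the 40 members (rows) in 4 comparisons (panels), each as the first-named group minus the second. Filled red points are members called at an adjusted p under 0.05: 3, 9, 15 and 0 members from left to right, and in the last panel 35 of 40 points lie left of 0.

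The 3 RNA sensors were all tested and none was called in any of the 7 comparisons, the lowest limma adjusted p being 0.0821 (DDX60, non-targeting guide against no guide). DDX58 (RIG-I), which detects viral RNA with a triphosphate end, stood at 8.57 and 9.00 RPKM under guide 1 and 7.05 and 6.53 RPKM under guide 2, against 7.22 and 7.05 RPKM under the non-targeting guide and 7.51 and 5.87 RPKM without a guide. IFIH1 (MDA5), which detects long double-stranded RNA, stood at 12.6 and 13.4 RPKM under guide 1 and 8.91 and 12.1 RPKM under guide 2, against 11.3 and 13.5 RPKM under the non-targeting guide and 8.70 and 10.5 RPKM without a guide. DDX60, an RNA helicase of the same response, stood at 10.3 and 9.30 RPKM under guide 1 and 7.58 and 8.62 RPKM under guide 2, against 9.77 and 11.7 RPKM under the non-targeting guide and 8.17 and 7.44 RPKM without a guide. For DDX58 both guide 1 libraries lay above the other 6. For IFIH1 guide 2 overlapped both control groups, and guide 1 overlapped the non-targeting guide. For DDX60 guide 1 overlapped the non-targeting guide and guide 2 overlapped the cells without a guide. All libraries of the former pair lay above all of the latter pair.

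Among the transcription factors, IRF1 and IRF7 were higher in every group with a guide than without a guide, and neither was called between an e3 guide and the non-targeting guide. IRF1 (ENSG00000125347.8), an activator of the interferon gamma response and of antigen processing genes, stood at 13.9 and 15.2 RPKM under guide 1 and 15.6 and 15.9 RPKM under guide 2, against 11.8 and 12.4 RPKM under the non-targeting guide and 6.75 and 9.08 RPKM without a guide. The 4 groups did not overlap, and both e3 groups lay above both control groups. Its log2 change against no guide was 0.81 ± 0.13 with guide 1 (limma adjusted p = 0.00625), 0.92 ± 0.13 with guide 2 (0.00275) and 0.57 ± 0.13 with the non-targeting guide (0.0315), the last of which was lost without either guide 2 library, either non-targeting library or no-guide replicate 1 (up to 0.145). IRF7 (ENSG00000185507.14), the factor that amplifies type I interferon production, stood at 7.39 and 6.87 RPKM under guide 1 and 8.66 and 8.52 RPKM under guide 2, against 7.63 and 7.67 RPKM under the non-targeting guide and 4.03 and 4.38 RPKM without a guide. Guide 2 was the highest group here and guide 1 lay just under the non-targeting guide, with the no-guide libraries far below the other 6. The changes against no guide were 0.64 ± 0.11 with guide 1 (limma adjusted p = 0.00838), 0.88 ± 0.11 with guide 2 (0.00145) and 0.74 ± 0.11 with the non-targeting guide (0.00505). The first was lost without guide 1 replicate 1 (0.0527). STAT2, a subunit of the complex that binds the ISRE, stood at 9.05 and 8.75 RPKM under guide 1 and 8.64 and 11.3 RPKM under guide 2, against 6.44 and 6.77 RPKM under the non-targeting guide and 9.78 and 8.44 RPKM without a guide. It was lowest with the non-targeting guide and was not called in any comparison. IRF9, the DNA-binding subunit of that complex, was listed at 1.81 and 2.03 RPKM with guide 1 and at 0 in the other 6 libraries. Each of those values equals 1 read step of its short gene model, and 48.4% of its exon bases overlap another gene on the same strand in GENCODE 29, so its level is uncertain.

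ISG15 and its ligase HERC5 were called lower with guide 2 than with the non-targeting guide. ISG15 (ENSG00000187608.5), a secreted and conjugated ubiquitin-like protein, stood at 181 and 204 RPKM under guide 1 and 134 and 139.8 RPKM under guide 2, against 198 and 187 RPKM under the non-targeting guide and 139 and 139.6 RPKM without a guide. The libraries fell on 2 levels, guide 1 overlapping the non-targeting guide at the upper and guide 2 overlapping the cells without a guide at the lower. With guide 2 it was lower than with the non-targeting guide, with a log2 change of -0.49 ± 0.06 (limma adjusted p = 0.00331), and this call held in all 15 alternatives. Against no guide it was higher by 0.46 with guide 1 (limma adjusted p = 0.0027) and by 0.46 with the non-targeting guide (0.00303), while the change with guide 2 was -0.02 (0.843). HERC5 (ENSG00000138646.4), the main ligase for ISG15 in human cells, stood at 10.6 and 11.7 RPKM under guide 1 and 7.71 and 7.41 RPKM under guide 2, against 11.5 and 14.3 RPKM under the non-targeting guide and 9.46 and 9.96 RPKM without a guide. Both guide 2 libraries were the lowest of the 8. Its change with guide 2 against the non-targeting guide was -0.69 ± 0.12 (limma adjusted p = 0.014), and the p lay at up to 0.0843 when guide 2 replicate 1, guide 2 replicate 2 or non-targeting replicate 2 was left out. HERC6, a relative of HERC5, stood at 8.83 and 9.04 RPKM under guide 1 and 7.20 and 5.75 RPKM under guide 2, against 7.66 and 6.84 RPKM under the non-targeting guide and 5.62 and 5.61 RPKM without a guide. Guide 1 held the 2 highest libraries and the cells without a guide the 2 lowest, and the call was for guide 1 against no guide (0.59 ± 0.13, limma adjusted p = 0.0242), with p of up to 0.1002 without any 1 of those 4 libraries. UBE2L6, the conjugating enzyme of the pathway, ran from 3.43 to 17.1 RPKM and its replicates lay far apart in every group but guide 1. USP18, which removes ISG15 and dampens receptor signalling, ran from 6.02 to 10.7 RPKM and was highest in both guide 1 libraries. Neither was called in any comparison.

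Of the 4 IFIT genes, whose proteins bind viral RNA and block its translation, 3 were called lower with guide 2 than with the non-targeting guide. IFIT1 (ENSG00000185745.8), which recognizes RNA caps that lack methylation, stood at 12.8 and 11.3 RPKM under guide 1 and 8.07 and 7.95 RPKM under guide 2, against 14.5 and 12.6 RPKM under the non-targeting guide and 9.48 and 7.62 RPKM without a guide. Guide 2 overlapped the cells without a guide, and guide 1 overlapped the non-targeting guide. The changes against the non-targeting guide were -0.15 ± 0.13 with guide 1 (limma adjusted p = 0.6) and -0.68 ± 0.13 with guide 2 (0.0189). IFIT2 (ENSG00000119922.7), a partner of IFIT1 in its complexes, stood at 7.10 and 7.40 RPKM under guide 1 and 4.78 and 6.02 RPKM under guide 2, against 8.47 and 9.22 RPKM under the non-targeting guide and 7.27 and 7.95 RPKM without a guide. Guide 2 was lowest and the non-targeting guide highest, without overlap, while guide 1 overlapped the cells without a guide. Its change with guide 2 against the non-targeting guide was -0.63 ± 0.13 (limma adjusted p = 0.0266). IFIT3 (ENSG00000119917.8), which stabilizes IFIT1, stood at 20.5 and 17.1 RPKM under guide 1 and 13.2 and 17.2 RPKM under guide 2, against 24.4 and 21.9 RPKM under the non-targeting guide and 14.7 and 12.7 RPKM without a guide. The non-targeting libraries were the highest, and guide 2 overlapped both guide 1 and the cells without a guide. Its change with guide 2 was -0.58 ± 0.15 with an adjusted p of 0.0485 (limma), next to the threshold, and only 3 of 15 alternatives kept that call. Leaving out single libraries of that comparison took the adjusted p of IFIT1 to up to 0.119 (each of the 4) and that of IFIT2 to up to 0.137 (guide 2 replicate 1 and each non-targeting library). Against no guide the non-targeting guide was higher for IFIT1 by 0.61 (limma adjusted p = 0.023) and for IFIT3 by 0.72 (0.018), and both calls were lost without either non-targeting library or without no-guide replicate 2 (up to 0.130 and 0.106). IFIT5 ran from 3.81 to 6.40 RPKM, was highest in the guide 1 libraries and was not called.

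**Figure D5:**
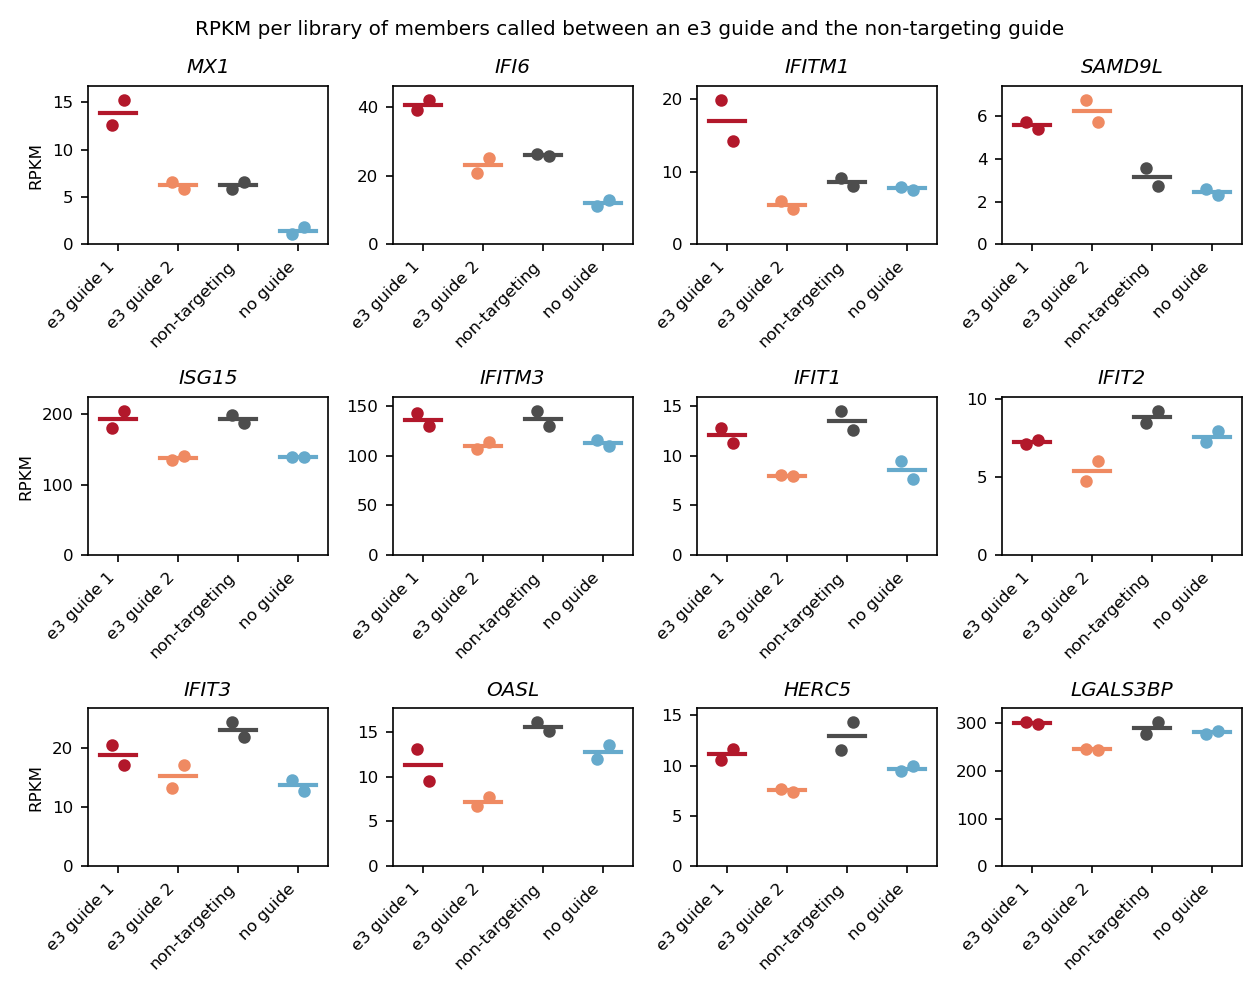
RPKM in each library (points) and group means (bars) of the 12 members called between an e3 guide and the non-targeting guide, 2 libraries per group. Guide 1 stands above the other groups for MX1, IFI6 and IFITM1, both e3 guides above both controls for SAMD9L, and guide 2 below the non-targeting guide for the remaining 8.

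The effectors of the OAS and MX families differed among themselves. MX1 (ENSG00000157601.9), a dynamin-like GTPase that traps viral nucleocapsids, stood at 12.6 and 15.2 RPKM under guide 1 and 6.55 and 5.87 RPKM under guide 2, against 5.88 and 6.56 RPKM under the non-targeting guide and 1.09 and 1.77 RPKM without a guide. Its 3 levels did not overlap: guide 1 was highest, guide 2 and the non-targeting guide shared the middle, and the cells without a guide were far below. The change with guide 1 was 1.04 ± 0.17 against the non-targeting guide (limma adjusted p = 0.0177) and 2.63 ± 0.17 against no guide (6.91e-05). With guide 2 it was -0.002 against the non-targeting guide (limma adjusted p = 0.997) and 1.58 ± 0.17 against no guide (0.000676), and the non-targeting guide itself was higher than no guide by 1.58 (0.00109). The first of these calls was lost without either guide 1 library (adjusted p = 0.0538 and 0.103) or either non-targeting library (0.115 and 0.0826), while the 3 against no guide held in every alternative. MX2, its relative that restricts retroviruses, ran from 0.625 to 1.70 RPKM on 14 to 35 reads and was not called.

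OAS1 and OAS3, synthases of the messenger that activates the nuclease RNase L, ranked the groups alike. OAS1 (ENSG00000089127.7) stood at 6.51 and 6.99 RPKM under guide 1 and 5.33 and 5.55 RPKM under guide 2, against 5.97 and 6.07 RPKM under the non-targeting guide and 3.16 and 2.48 RPKM without a guide. OAS3 (ENSG00000111331.7) stood at 13.9 and 14.2 RPKM under guide 1 and 10.9 and 10.2 RPKM under guide 2, against 11.7 and 12.8 RPKM under the non-targeting guide and 7.68 and 7.66 RPKM without a guide. In both, guide 1 was highest, then the non-targeting guide, then guide 2, and the cells without a guide were lowest, without overlap between groups. Against no guide OAS1 was higher by 1.03 with guide 1 (limma adjusted p = 0.00259), 0.76 with guide 2 (0.00797) and 0.88 with the non-targeting guide (0.00558). The same changes of OAS3 were 0.79 (limma adjusted p = 0.00165), 0.41 (0.026) and 0.62 (0.00593). Without guide 2 replicate 2 the call of OAS1 for guide 2 was lost (0.0534), and without any 1 of the 4 libraries compared that of OAS3 was (up to 0.129). Neither gene was called between an e3 guide and the non-targeting guide. OASL (ENSG00000135114.7), a relative without synthase activity that enhances RIG-I signalling, followed another order and stood at 13.0 and 9.50 RPKM under guide 1 and 6.70 and 7.67 RPKM under guide 2, against 16.0 and 15.1 RPKM under the non-targeting guide and 11.9 and 13.5 RPKM without a guide. Guide 2 was lowest, the non-targeting guide highest, and guide 1 overlapped the cells without a guide. With guide 2 it was lower than with the non-targeting guide by 1.02 on the log2 scale (limma adjusted p = 0.00662), a ratio of 0.461, and lower than without a guide by 0.75 (0.0134). The first call was lost only without non-targeting replicate 1 (adjusted p = 0.0541), and the second without guide 2 replicate 1 or no-guide replicate 2 (up to 0.0800). OAS2 ran from 0.454 to 2.31 RPKM and ISG20, an exonuclease, from 3.84 to 7.08 RPKM, and neither was called. RSAD2 (viperin) and CMPK2, neighbouring genes whose proteins act on nucleotides, reached at most 0.103 and 0.107 RPKM, which is 1 read.

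The membrane and secreted proteins held 2 of the 3 members called higher with guide 1 than with the non-targeting guide. IFI6 (ENSG00000126709.10), a small mitochondrial and endoplasmic reticulum protein, stood at 39.3 and 42.1 RPKM under guide 1 and 20.7 and 25.3 RPKM under guide 2, against 26.5 and 25.8 RPKM under the non-targeting guide and 11.1 and 12.9 RPKM without a guide. Guide 1 was highest, the non-targeting guide lay just above guide 2, and the cells without a guide were lowest, without overlap. The change with guide 1 against the non-targeting guide was 0.62 ± 0.11 (limma adjusted p = 0.0248), and against no guide the changes were 1.69 ± 0.11 with guide 1 (7.77e-05), 0.88 ± 0.11 with guide 2 (0.00152) and 1.07 ± 0.11 with the non-targeting guide (0.000985). IFITM1 (ENSG00000185885.10), a membrane protein that blocks viral entry, stood at 19.8 and 14.2 RPKM under guide 1 and 5.96 and 4.80 RPKM under guide 2, against 9.10 and 8.07 RPKM under the non-targeting guide and 7.89 and 7.48 RPKM without a guide. Guide 1 was highest and guide 2 lowest, with both controls between them and no overlap, on 15 to 63 reads per library. It was higher with guide 1 than with the non-targeting guide by 0.89 ± 0.17 (limma adjusted p = 0.0282) and than without a guide by 1.03 ± 0.17 (0.00637), while the change with guide 2 against the non-targeting guide was -0.59 (0.075). IFI6 lost its call against the non-targeting guide without any 1 of the 4 libraries compared (adjusted p of 0.0840 to 0.134), and IFITM1 lost it without guide 1 replicate 1 (0.113) or either non-targeting library (0.109 and 0.152). IFITM1 shares 32.5% of its exon bases with IFITM2 in GENCODE 29 and the IFITM genes are near-identical copies, so reads may have been split among them and their values are uncertain.

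IFITM3, which blocks entry at endosomes, and LGALS3BP, a secreted glycoprotein, were among the most abundant members. IFITM3 (ENSG00000142089.9) stood at 143 and 129.6 RPKM under guide 1 and 106 and 113 RPKM under guide 2, against 144 and 129.6 RPKM under the non-targeting guide and 116 and 109.9 RPKM without a guide. It lay lower with guide 2 than with the non-targeting guide by 0.31 on the log2 scale (limma adjusted p = 0.0367), a call that 6 of 15 alternatives kept, and it was lost without any 1 library of that comparison (adjusted p of up to 0.189) or either no-guide library (0.0506 and 0.0504). LGALS3BP (ENSG00000108679.5) stood at 302 and 299 RPKM under guide 1 and 246 and 245 RPKM under guide 2, against 277 and 302 RPKM under the non-targeting guide and 278 and 285 RPKM without a guide. Both guide 2 libraries lay below the other 6, and the changes with guide 2 were -0.24 against the non-targeting guide (limma adjusted p = 0.019) and -0.20 against no guide (0.0222). Under quantile normalization these were 0.025 and -0.05, so the first changes its direction with the scaling. The first call was also lost without either guide 2 library or non-targeting replicate 2 (up to 0.0993), and the second without any 1 of the 4 libraries compared (up to 0.102). BST2 (ENSG00000130303.7), tetherin, which holds budding virus at the cell surface, stood at 146 and 137 RPKM under guide 1 and 118 and 127 RPKM under guide 2, against 125 and 138 RPKM under the non-targeting guide and 89.9 and 92.0 RPKM without a guide. Its no-guide libraries were the lowest, and the other 3 groups lay close together. It was higher than without a guide by 0.63 with guide 1 (limma adjusted p = 0.000656), 0.42 with guide 2 (0.00363) and 0.53 with the non-targeting guide (0.00191). IFI27 (ENSG00000165949.8), a mitochondrial protein, stood at 8.29 and 9.51 RPKM under guide 1 and 4.62 and 2.07 RPKM under guide 2, against 3.51 and 4.30 RPKM under the non-targeting guide and 0.872 and 0 RPKM without a guide. The highest of these libraries held 54 reads, and guide 2 overlapped the non-targeting guide while guide 1 lay above and the cells without a guide below both. Against no guide its change on the log2(RPKM + 1) scale was 2.85 ± 0.36 with guide 1 (limma adjusted p = 0.00176), 1.60 ± 0.36 with guide 2 (0.0192) and 1.84 ± 0.36 with the non-targeting guide (0.0143). With a pseudocount of 0.1 these became 4.85, 3.36 and 3.68, a no-guide library being listed at 0. The call for guide 2 was lost without guide 2 replicate 1 or no-guide replicate 2 (up to 0.103), and that for the non-targeting guide without either of its libraries or no-guide replicate 2 (up to 0.0896).

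The 3 antigen processing genes were called higher with guide 1 than without a guide, and none was called between an e3 guide and the non-targeting guide. PSMB9 (ENSG00000240065.2), a catalytic subunit of the immunoproteasome, stood at 41.9 and 39.6 RPKM under guide 1 and 41.5 and 34.8 RPKM under guide 2, against 35.2 and 32.1 RPKM under the non-targeting guide and 18.1 and 15.8 RPKM without a guide. Guide 1, guide 2 and the non-targeting guide adjoined or overlapped, and the no-guide libraries were far below. It was higher than without a guide by 1.22 with guide 1 (limma adjusted p = 0.000321), 1.12 with guide 2 (0.000349) and 0.95 with the non-targeting guide (0.00128). TAP1 (ENSG00000168394.9), a subunit of the peptide transporter, stood at 61.2 and 62.1 RPKM under guide 1 and 60.3 and 57.1 RPKM under guide 2, against 50.5 and 48.0 RPKM under the non-targeting guide and 31.7 and 39.0 RPKM without a guide. Its 4 groups did not overlap, and all 4 e3 libraries lay above all 4 control libraries. Its changes against no guide were 0.79 with guide 1 (limma adjusted p = 0.00144), 0.72 with guide 2 (0.0017) and 0.48 with the non-targeting guide (0.0162). Over the pooled e3 libraries its change against the controls was 0.52 ± 0.13 (limma adjusted p = 0.0512). The call for the non-targeting guide was lost without either of its libraries or no-guide replicate 1 (up to 0.0951). PSMB8, another immunoproteasome subunit, ran from 52.5 to 78.5 RPKM and was called only for guide 1 against no guide (0.44, limma adjusted p = 0.0263), a call lost without guide 1 replicate 1 or either no-guide library (up to 0.131). PSMB8 shares 20.6% and TAP1 9.49% of their exon bases with the antisense gene PSMB8-AS1 in GENCODE 29, and since the sources used here do not give the strand setting, those reads cannot be told apart. The same limit applies to IRF1, which shares 1716 of its exon bases with C5orf56 on the opposite strand (a larger share than in PSMB8), to IFITM3 (21.3%, AC136475.5) and to SP110 (18.4%, AC009950.1). PSMB9 shares 5.66% of its exon bases with PSMB8-AS1 and IFIT2 8.68% with AL353751.1, both on the same strand. There even a known strand setting would not separate the reads.

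Among the remaining members, SAMD9L and IFI35 were higher in the e3 libraries than in both control groups. SAMD9L (ENSG00000177409.6), an antiviral inhibitor of translation, stood at 5.72 and 5.43 RPKM under guide 1 and 6.75 and 5.72 RPKM under guide 2, against 3.57 and 2.71 RPKM under the non-targeting guide and 2.60 and 2.32 RPKM without a guide. All 4 e3 libraries lay above all 4 control libraries, and the e3 guides differed little from each other. The change for the e3 guides against the controls was 0.87 ± 0.13 (limma adjusted p = 0.00929). Against the non-targeting guide it was 0.67 ± 0.16 with guide 1 (limma adjusted p = 0.0609) and 0.81 ± 0.16 with guide 2 (0.0215), and the second was lost without either guide 2 library or without non-targeting replicate 2 (up to 0.122). SAMD9, its neighbour on chromosome 7 with a related role, stood at 18.8 and 19.2 RPKM under guide 1 and 16.2 and 18.7 RPKM under guide 2, against 15.8 and 13.5 RPKM under the non-targeting guide and 18.4 and 15.5 RPKM without a guide, and it was not called. IFI35 (ENSG00000068079.3), a partner of NMI, stood at 22.4 and 25.4 RPKM under guide 1 and 18.4 and 21.4 RPKM under guide 2, against 16.7 and 14.8 RPKM under the non-targeting guide and 9.94 and 14.2 RPKM without a guide. The groups did not overlap, and both e3 groups lay above both controls. Its changes were 0.63 ± 0.15 for the e3 guides against the controls (limma adjusted p = 0.0435), 0.95 for guide 1 against no guide (0.00776) and 0.69 for guide 2 against no guide (0.0239). The calls against no guide were lost without guide 1 replicate 2 (0.0527) and, for guide 2, without either guide 2 library or no-guide replicate 1 (up to 0.132).

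IFI44L (ENSG00000137959.10), whose protein lowers interferon signalling in cultured cells, stood at 3.46 and 3.41 RPKM under guide 1 and 2.95 and 2.79 RPKM under guide 2, against 2.89 and 2.71 RPKM under the non-targeting guide and 0.870 and 0.596 RPKM without a guide. Guide 1 was highest, guide 2 overlapped the non-targeting guide, and the no-guide libraries held as few as 8 reads. It was higher than without a guide by 1.36 with guide 1 (limma adjusted p = 0.00205), 1.16 with guide 2 (0.00331) and 1.14 with the non-targeting guide (0.00511). A pseudocount of 0.1 raised these to 2.10, 1.85 and 1.82. Its neighbour IFI44 stood at 16.5 and 13.5 RPKM under guide 1 and 10.1 and 14.7 RPKM under guide 2, against 19.03 and 17.9 RPKM under the non-targeting guide and 12.7 and 11.0 RPKM without a guide. It was not called, and both non-targeting libraries were the highest. PARP9 ran from 4.09 to 6.83 RPKM, PARP14 from 6.77 to 8.15 RPKM, EPSTI1 from 1.26 to 2.69 RPKM and SP110 from 3.96 to 7.90 RPKM. The first pair are ADP-ribosyltransferase family proteins and SP110 is a nuclear body protein, and none of these 4 was called in any comparison. XAF1, a promoter of apoptosis, reached 0.420 RPKM and TRIM22, an antiviral ubiquitin ligase, 0.240 RPKM, both below the level tested.

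Between the e3 guides most members lay lower with guide 2, and none passed the adjustment. With guide 2, 35 of the 40 members were lower than with guide 1 and 5 were higher, with a median change of -0.29, where 49.95% of all genes were lower and the median was 0.00017. In limma 0 members were called either way, and of all 13979 genes 4 were called (0.0286%), 3 higher and 1 lower (0.0215% and 0.00715%). At an unadjusted p under 0.05 there were 19 members, all lower, against 10.4% of all genes either way. The lowest adjusted p-values were those of IFITM1 (log2 change -1.48 ± 0.17, limma adjusted p = 0.0517) and ISG15 (-0.48 ± 0.06, 0.0558), followed by IFI6 (-0.80 ± 0.11, 0.076) and MX1 (-1.04 ± 0.17, 0.0976). Of the members, 11 lay below the 5% point of all genes and 0 above the 95% point. Restricting the test to genes that averaged 5 RPKM or more called 3 members, IFITM1, ISG15 and IFI6, all lower with guide 2. MYC, lower with both guides than in the controls, changed between the guides by -0.24 ± 0.05 (limma adjusted p = 0.193).

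Members with and without an ISRE core in their promoter window differed in their median changes, which is given as a description. A window was counted as without a core if it lacked the exact pattern. Those of OAS1 and DDX58 hold gaaacgaaa and that of IFI35 holds gaaatgaaa, with a shorter gap between the GAAA stretches. Cores outside a window were not counted either. PSMB9 was counted as without a core, although the cores of the neighbouring gene TAP1 lie upstream of the PSMB9 window. For both e3 guides, PSMB9 had the largest change against no guide among the members without a core. How the medians would change with such variants or outside cores counted was not tested. For guide 2 against the non-targeting guide the median was -0.23 over the 23 tested members with a core and 0.11 over the 11 without. For guide 2 against no guide these medians were 0.05 and 0.69, and for guide 1 against no guide 0.43 and 0.81. Guide 2 against guide 1 gave -0.29 with a core and -0.10 without. Between the controls, the non-targeting guide minus no guide, the medians were close, at 0.41 and 0.37. The 6 tested members without a window, OASL among them, had a median of -0.25 for guide 2 against the non-targeting guide and -0.47 for guide 2 against guide 1. Single genes ran both ways: for guide 2 against the non-targeting guide TAP1, with 2 cores, changed by 0.25 and PSMB8, with none, by -0.20, and neither was called. The members whose promoters are printed were chosen for their RNA and show nothing of such a relation.

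The genes upstream of the members were described by the same fits, without the alternatives. Of 21 interferon genes in the table, 16 were listed at 0 in every library, and IFNA8 stood highest at 1.34 to 5.36 RPKM on at most 26 reads, with IL29 (IFNL1) at up to 1.81 RPKM on at most 6 reads. Interferon receptors and JAK-STAT genes, 17 of which were tested, had 4 higher (IFNAR2, SOCS3, JAK1 and STAT3) and 0 lower with guide 2 than with the non-targeting guide, where 4.03% and 5.32% of all genes were called. Against no guide 7 were higher and 0 lower with guide 1 (background 7.37% and 6.85%), and 8 higher and 0 lower with guide 2 (8.57% and 9.11%). The non-targeting guide had 4 higher (IFNGR2, SOCS3, IFNGR1 and JAK1) and 0 lower than the cells without a guide (6.55% and 5.81%). JAK1 and STAT3 are named here because they make up these short counts. IFNAR2, a chain of the type I receptor, stood at 3.31 and 2.58 RPKM under guide 1 and 3.86 and 3.89 RPKM under guide 2, against 1.43 and 0.934 RPKM under the non-targeting guide and 1.18 and 1.32 RPKM without a guide. All 4 e3 libraries lay above all 4 controls. Against the non-targeting guide its change was 0.86 ± 0.20 with guide 1 (limma adjusted p = 0.055) and 1.17 ± 0.20 with guide 2 (0.0118). SOCS3, a feedback inhibitor of JAK signalling, stood at 42.6 and 40.6 RPKM under guide 1 and 40.9 and 40.9 RPKM under guide 2, against 31.5 and 32.3 RPKM under the non-targeting guide and 18.2 and 16.7 RPKM without a guide. The no-guide libraries were lowest and the e3 libraries highest. It was higher with guide 1 by 0.37 (limma adjusted p = 0.0294) and with guide 2 by 0.35 (0.0238) than with the non-targeting guide. SOCS1, IFNGR1 and IFNGR2 were the other genes named by size. Against no guide SOCS1, another inhibitor of JAK kinases, was higher with guide 2 by 1.11 (limma adjusted p = 0.031). IFNGR1, a chain of the interferon gamma receptor, was higher than without a guide by 0.85 with guide 1 (limma adjusted p = 0.00477), 0.99 with guide 2 (0.00177) and 0.53 with the non-targeting guide (0.0384). IFNGR2, its partner chain, stood at 14.7 and 16.3 RPKM under guide 1 and 14.4 and 14.8 RPKM under guide 2, against 17.1 and 18.0 RPKM under the non-targeting guide and 6.29 and 7.94 RPKM without a guide. Its e3 libraries lay below both non-targeting libraries and far above both no-guide libraries.

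Of 17 tested sensors and adaptors that are no members, 0 were called with guide 1 against the non-targeting guide in limma (4 at an unadjusted p under 0.05, or 23.5%, near the 19.9% of all genes) and 1 was lower with guide 2 (5.88% called, below the 9.34% of all genes). That gene was TMEM173 (STING), the adaptor of cytosolic DNA sensing, which stood at 26.3 and 28.5 RPKM under guide 1 and 17.9 and 17.1 RPKM under guide 2, against 23.6 and 24.3 RPKM under the non-targeting guide and 31.3 and 37.8 RPKM without a guide. Guide 2 was lowest and the cells without a guide highest, without overlap, and the change with guide 2 was -0.44 ± 0.10 against the non-targeting guide (limma adjusted p = 0.0366). Against no guide, 2 of the 17 were higher and 1 lower (TRIM25) with guide 1, 2 higher and 2 lower (TMEM173 and TRIM25) with guide 2, and 4 higher and the same 2 lower with the non-targeting guide, which is 17.6%, 23.5% and 35.3% called where all genes had 14.2%, 17.7% and 12.4%. IFI16, a DNA sensor, and IKBKE, a kinase that activates IRF3 and IRF7, were higher than without a guide in all 3, by 0.66 and 0.90 with guide 1, 0.55 and 0.78 with guide 2, and 0.59 and 0.70 with the non-targeting guide. MB21D1 (cGAS) and TICAM1, an adaptor of TLR3, were called only between the non-targeting guide and no guide, at 0.50 and 0.43.

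Another 39 interferon-induced genes were tested, and they, like all genes, were called mostly against the cells without a guide. Against no guide 19 were higher and 0 lower with guide 1, 12 higher and 2 lower (LY6E and IFITM2) with guide 2, and 9 higher and 0 lower with the non-targeting guide. These are 48.7%, 35.9% and 23.1% of the list, where 14.2%, 17.7% and 12.4% of all genes were called. Against the non-targeting guide 2 were higher (TAPBP and PARP10) and 0 lower with guide 1, and with guide 2 there were 2 higher (TAPBP and SLFN5) and 2 lower (PNPT1 and IFITM2). These are 5.13% and 10.3% of the list, near the 4.77% and 9.34% of all genes. TAPBP (tapasin), which loads peptides onto class I molecules, stood at 70.2 and 67.2 RPKM under guide 1 and 74.5 and 76.8 RPKM under guide 2, against 53.7 and 55.4 RPKM under the non-targeting guide and 33.6 and 35.7 RPKM without a guide. Its e3 libraries were the highest and its no-guide libraries the lowest. It was higher with guide 1 by 0.33 (limma adjusted p = 0.0241) and with guide 2 by 0.47 (0.0033) than with the non-targeting guide. PML, SLFN5, PARP12 and GBP1 were the others named by size, and their changes with guide 1 against no guide were 1.00, 0.83, 0.91 and 0.77, with limma adjusted p-values of 0.000549, 0.000259, 0.000353 and 0.0476.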

How the data were processed

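RNA from 8 libraries of NCI-H2009 cells with dCas9-KRAB was measured after poly(A) selection, per the labels' protocols. The deposited values are RPKM, per the file headers, in 1 table with 1 column per library. Cufflinks and hg19 are named per the submitters' processing notes, while the aligner, counting, strand setting and annotation release are not given in the sources used here. Columns were matched to samples by the names in the titles and the design text, and groups and replicate numbers came from the titles.

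Of the 13979 genes tested, 13865 (99.2%) had values that were whole multiples of 1 read within 0.03 reads, which gave the depths; no count test was run. Tests used limma 3.58.1 in R 4.3.3 (moderated, with a variance trend, two-sided) on log2(RPKM + 1), a scale that understates changes of low genes, for genes that averaged 1 RPKM or more over the 8 libraries. Benjamini-Hochberg adjustment ran over all genes tested. The 6 comparisons between groups used 1 model with 4 groups and all 8 libraries, and the e3 guides against the controls a model with 2 groups. Errors are standard errors. The fit was tested on simulated data first.

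Values in every library are given for the 20 members called in some comparison with an absolute log2 change of at least 0.5, for MYC, and for a few others chosen after their values were seen. From each other pathway list up to 5 called genes, ranked by their largest change, are named; some results of the receptor and JAK-STAT list are not reported here. The members, the lists and these rules were chosen with earlier results of these data known. Overlaps between genes come from GENCODE 29 and promoters from RefSeq, both on GRCh38 and used for no position in the deposited data.

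The alternatives were a pseudocount of 0.1, no filter, quantile and median-ratio scaling, a mean of 5 RPKM or more, a replicate block, only the 4 libraries compared, each library left out in turn, and, for the e3 guides against the controls, an estimated correlation within groups, group means as samples and, added after seeing the data, no no-guide libraries.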

Additional observations from a re-analysis of the deposited data

How the results depend on the processing

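Counts of members called stayed within 1.5 times the reported count in each comparison, apart from the following. For guide 2 against the non-targeting guide the count of 9 became 4 without a filter and 4 with only the 4 libraries compared. For guide 2 against guide 1 the count of 0 became 1 without a filter (IRF9), 3 at a mean of 5 RPKM or more and 1 under quantile normalization (IFITM1). For the e3 guides against the controls the count of 2 became 1 without a filter, 1 with the replicate block, 1 with an estimated correlation and 0 with group means as samples. Leaving out 1 library at a time gave 0 to 5 members for guide 1 and 2 to 9 for guide 2 against the non-targeting guide, 13 to 18, 10 to 15 and 9 to 15 for guide 1, guide 2 and the non-targeting guide against no guide, 0 for guide 2 against guide 1 and 1 to 3 for the pooled comparison. In fits that leave a group with 1 library, that library is taken to vary like the others. Libraries of the same replicate number showed no shared shift, since the replicate differences correlated between groups at -0.02 to 0.01 over the genes tested. This cannot show whether such libraries were handled together. The replicate block left 3, 9, 20, 16, 16 and 0 members called in the 6 comparisons between groups. Only LGALS3BP changed its sign in a called comparison, to 0.025 (adjusted p = 0.821) for guide 2 against the non-targeting guide under quantile normalization. Of the members' single values, 2118 kept their side of the threshold with a library left out, 104 lost and 18 gained a call; under the other alternatives these were 1923, 44 and 23. Most of these values were not called in the main fits and could not lose a call, so the numbers kept do not measure how stable the calls are. The causes of these shifts were not tested. Depth limits IFI27, IFI44L, OAS2, MX2, IFITM1, EPSTI1 and MX1 most among the members tested, whose lowest libraries held 0, 8, 12, 14, 15, 22 and 22 reads.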
